A study of Mus musculus with 2 samples.

Results

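Plasma protein transcripts of the hepatocyte were followed as a set of 10 genes, taken by symbol from the 32285 genes of the deposited count tables: Alb, Ttr, Ambp, Trf, Apoa1, Apoa2, Ahsg, Fgb, Serpina1b and Afp. All 10 were present in both libraries. The data are single-cell RNA counts of 2 mouse livers, described by the labels as tetraploid (4N). In both, the host was a Hhex knockout whose blastocyst had been injected with tdTomato-positive 4N embryonic stem cells. The libraries are called here by their stage labels, P180 (postnatal) and E18.5 (embryonic). Each stage has 1 library, so no difference between the libraries has a replicate check and no test between them was made. Intervals given here cover counting error only.

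In the GENCODE vM21 annotation of mm10, Alb (chr5:90460897-90476602) and Afp (chr5:90490737-90508907) are neighbours on the plus strand, 14134 bases apart. Trf (chr9:103204001-103230444, minus strand) and Apoa1 (chr9:46228580-46230466, plus strand) share chromosome 9. Ambp lies at chr4:63143275-63154799 and Fgb at chr3:83040141-83049863, both on the minus strand. Apoa2 lies at chr1:171225054-171226379, Ahsg at chr16:22891277-22899449 and Ttr at chr18:20665280-20674321, all on the plus strand. Serpina1b spans chr12:103728156-103830373 on the minus strand, which takes in near-identical paralogs. Values are for whole genes, counted from 3′ tags.

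In the blood, these proteins carry, bind and inhibit. Albumin is the main plasma protein and carries fatty acids and other ligands, transthyretin carries thyroid hormone and retinol-binding protein, transferrin carries iron, and alpha-fetoprotein takes the place of albumin in fetal life. ApoA-I and ApoA-II are the main proteins of high-density lipoprotein. The Ambp precursor gives alpha-1-microglobulin and the protease inhibitor bikunin, fetuin-A (Ahsg) binds calcium phosphate, and Serpina1b encodes an alpha-1-antitrypsin. Fgb encodes the beta chain of fibrinogen, the clot protein. Hepatocytes make them in large amounts, alpha-fetoprotein mainly in fetal life. Cholangiocytes, the lining cells of the bile ducts, share an origin with hepatocytes in the hepatoblast. In droplet data, RNA that leaks from broken cells enters every droplet, so a low level over all cell types is set here beside the levels of cells far above it.

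Of the 10 genes, 8 had a promoter in the RefSeq table of build GRCm38.p6. The letters CCAAT, the CCAAT box found in promoters of many kinds of genes, were searched for on both strands of the 250 bases before each start, a motif chosen after the data had been seen. They were found in 5 of these 8 promoters and in 33.8% of 32851 promoters of the same length. The 120 bases before the start are shown for 4 genes, because they pair the gene with the highest level in bile duct cells (Alb) with 3 that stayed low there (Fgb, Serpina1b and Afp). Each is written 5′ to 3′ along the gene's strand, with the motif or its reverse complement ATTGG in capitals. That of Fgb holds neither.
Alb, chr5:90460750-90460869, plus strand: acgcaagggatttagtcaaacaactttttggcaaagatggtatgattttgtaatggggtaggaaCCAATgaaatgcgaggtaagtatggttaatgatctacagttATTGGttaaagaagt
Fgb, chr3:83049864-83049983, minus strand: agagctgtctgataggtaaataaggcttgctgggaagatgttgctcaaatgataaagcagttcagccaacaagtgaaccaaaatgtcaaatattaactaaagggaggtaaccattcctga
Serpina1b, chr12:103738190-103738309, minus strand: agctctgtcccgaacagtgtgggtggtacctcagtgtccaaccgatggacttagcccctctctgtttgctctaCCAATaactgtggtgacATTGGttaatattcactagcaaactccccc
Afp, chr5:90490594-90490713, plus strand: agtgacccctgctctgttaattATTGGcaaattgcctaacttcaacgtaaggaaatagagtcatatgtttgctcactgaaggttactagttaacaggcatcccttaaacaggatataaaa
The match is a description of these letters and not of a bound site.

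Of the barcodes, 8847 of 9771 were kept in the library labelled P180 and 4543 of 9871 in the library labelled E18.5. The median depth before filtering was 5899 UMIs (unique molecular identifiers, 1 for each captured RNA molecule) labelled P180 and 2326 UMIs labelled E18.5. A median of 0.655% of a barcode's UMIs was mitochondrial in the library labelled P180, against 16.7% in that labelled E18.5, and 28 barcode sequences occurred in both. Clusters were named from marker genes, with the 10 genes and wider plasma protein lists left out of the clustering. No cluster in either library was hepatocyte-like, although both tissues are labelled as liver. The content of the libraries ran against the stage labels: 6937 of 8847 cells labelled P180 were erythroid-like, against 84 of 4543 labelled E18.5. H19, which is high in fetal tissues, had 993 UMIs (12.1 CPM, UMIs per 1000000 UMIs) over the cells labelled P180. Over those labelled E18.5 it had 98 UMIs (3.39 CPM). Dlk1, also high in fetal tissues, had 605 UMIs (7.37 CPM) labelled P180 and 0 UMIs labelled E18.5. Hhex, the gene knocked out in the hosts, had 3505 UMIs (42.7 CPM) in the library labelled P180 and 2866 UMIs (99.1 CPM) in that labelled E18.5. The deleted part of Hhex is not stated in the labels, so these 3′ tags do not check the labels.

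Over all kept cells, the summed level of the 10 genes was 49.98 CPM (4104 UMIs) in the library labelled P180, against 870 CPM (25156 UMIs) in that labelled E18.5. The ratio is 17.4-fold lower with the label P180 (interval 16.8 to 18.0). At least 2-fold lower were 9 of the 10 genes, where 51.2% of the 14696 genes with at least 50 UMIs in a library were lower and 10.3% were higher by that margin. The median log2 ratio of the 10 genes was -2.95, beside -1.04 for all these genes. Alb was at 11.3 CPM (10.6 to 12.1) in the library labelled P180 and 431 CPM (424 to 439) in that labelled E18.5. Ttr was at 9.19 CPM labelled P180 and 179 CPM labelled E18.5. Apoa2 was at 5.61 CPM labelled P180 and 16.9 CPM labelled E18.5, 3.02-fold lower (2.65 to 3.43). A single barcode held 365 of its 461 UMIs labelled P180, and without it Apoa2 was 14.5-fold lower. Afp went the other way, with 1.80 CPM (148 UMIs) labelled P180 and 0.41 CPM (12 UMIs) labelled E18.5, a 4.34-fold higher level (2.41 to 8.60). A few barcodes carry most of these sums, 1 of them 38.7% of all member UMIs over the kept cells labelled P180. Both the low level shared by all classes and these barcodes are therefore described apart.

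**Figure D1:**
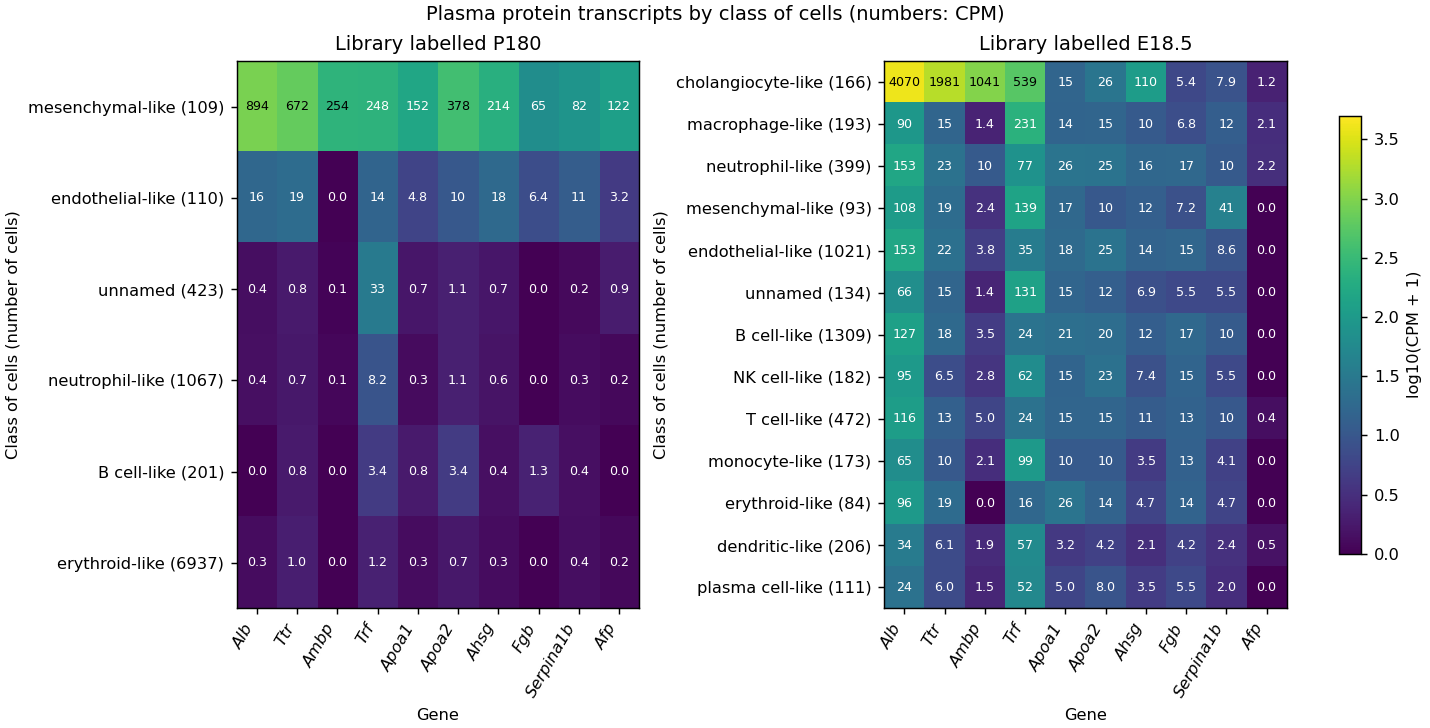
Level of each of the 10 genes (columns, CPM printed in each field, colour as log10(CPM + 1)) in each class of cells (rows, number of cells in brackets) of the library labelled P180 (left) and that labelled E18.5 (right). In the library labelled E18.5, 4 genes stand out in the cholangiocyte-like row, at 539 to 4070 CPM, and Trf also in macrophage-like cells at 231 CPM. In the library labelled P180 the mesenchymal-like row is high, which holds 11 barcodes rich in these transcripts.

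A low level of these transcripts lay over every class labelled E18.5. Between 26.1% (plasma cell-like) and 39.9% (macrophage-like) of the cells of each class other than cholangiocyte-like carried an Alb UMI, and 38.1% of T cell-like cells did so. The mean was 0.42 to 0.72 Alb UMIs per cell over these 12 classes, although their median depth ran between 2866 UMIs (neutrophil-like) and 18495.5 UMIs (dendritic-like). Alb in CPM was therefore high in the shallow neutrophil-like and endothelial-like cells, at 153 CPM in each, and lowest in plasma cell-like cells, at 23.6 CPM. The mix was alike in some classes: Alb made up 52.1% of the member UMIs in T cell-like cells, 50.2% in B cell-like, 51.9% in endothelial-like and 49.4% in erythroid-like cells. It made up less in the others, with 42.6% in neutrophil-like, 41.0% in NK cell-like, 30.4% in mesenchymal-like, 29.8% in monocyte-like, 29.1% in dendritic-like, 25.5% in unnamed, 22.7% in macrophage-like and 22.0% in plasma cell-like cells. Trf made up 21.4% to 58.0% in those 8, against 8.43% to 11.8% in the first 4. For every 1000 Alb UMIs there were 133 Apoa1 UMIs in T cell-like, 169 in B cell-like and 119 in endothelial-like cells. T cells make none of these proteins in quantity, and their summed level of 222 CPM serves as the background of this library.

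**Figure D2:**
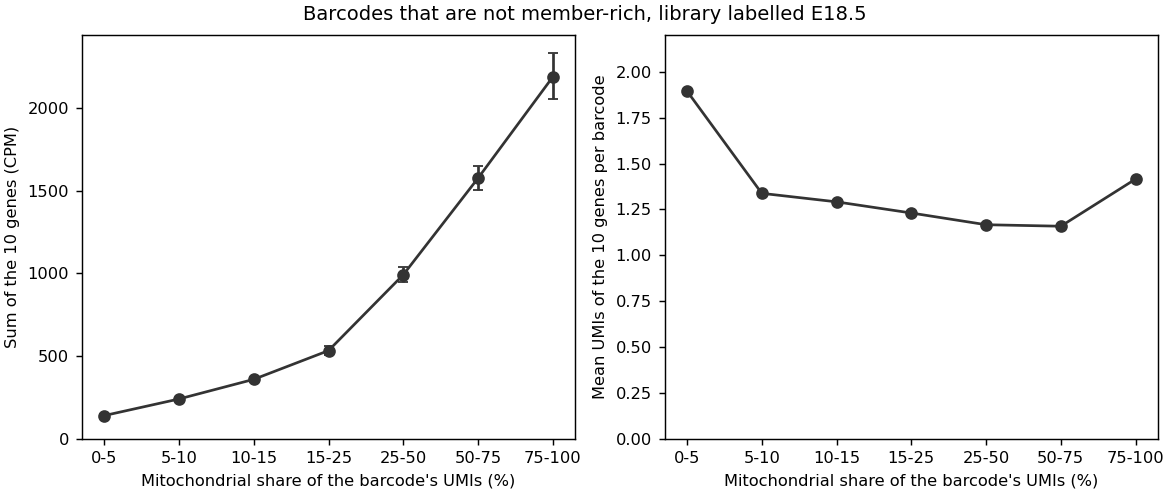
Barcodes labelled E18.5 that are not rich in the 10 genes, by the mitochondrial share of their UMIs (x axis, %). The left panel gives the summed level of the 10 genes (CPM, bars are exact Poisson 95% intervals), which runs from 140 CPM to 2187 CPM, and the right panel the mean number of their UMIs per barcode, which stays between 1.16 and 1.90.

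In the library labelled E18.5, barcodes with a high mitochondrial share, a sign of damaged cells, carried a like number of plasma protein UMIs in far smaller totals. Among the barcodes labelled E18.5 that are not rich in the 10 genes, those with under 5% of mitochondrial UMIs held a median of 11532 UMIs and a summed level of 140 CPM, whereas those with 75% or more held 598 UMIs and 2187 CPM. The mean stayed between 1.16 and 1.90 member UMIs per barcode over all 7 ranges of mitochondrial share. The ratio of Apoa1 to 1000 Alb UMIs stayed between 128 and 187. In the library labelled P180 the mean over the same ranges was less even, from 0.029 to 0.897 member UMIs per barcode, with 35 to 233 barcodes in each range from 5% upwards. The low level was smaller: erythroid-like cells, used there as the background, had 4.50 CPM, and 2.51% of them held any member UMI. It held little Alb. Of the 198 member UMIs in erythroid-like cells, 52 were Trf, 45 Ttr, 31 Apoa2 and 14 Alb.

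Cholangiocyte-like cells labelled E18.5 stood far above this level. The 166 cells had a summed 7797 CPM (18866 UMIs), against 222 CPM (578 UMIs) in 472 T cell-like cells, 35.1-fold higher (32.4 to 38.2). At least 1 member UMI was found in 98.8% of them, with a median depth of 10526 UMIs, against 61.7% of T cell-like cells at 5278 UMIs. After thinning each cell to 1000 UMIs, an Alb UMI remained in 92.7% of 164 cholangiocyte-like and 11.3% of 471 T cell-like cells. They led on bile duct markers, with all 15 of the list detected and 23234 CPM in sum, against 24.6 CPM in T cell-like cells. The hepatocyte marker list, which holds enzymes and regulators and no plasma protein, summed to 514 CPM in cholangiocyte-like cells and 58.3 CPM in T cell-like cells, with 21 of 23 detected. Of these 23, Cps1 and Cyp2c29 were at 0 in the cholangiocyte-like cells.

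The 10 genes did not share this pattern. At least 2-fold higher in cholangiocyte-like than T cell-like cells were 5 genes, where 32.9% of the 8495 genes tested were higher and 17.3% lower by that margin. Alb and Trf reached the minimum of 50 UMIs in both classes. Ttr, Ambp, Ahsg and Apoa2 reached it in cholangiocyte-like cells alone, so a high ratio follows in part from that minimum. The other 4 genes stayed under it.

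**Figure D3:**
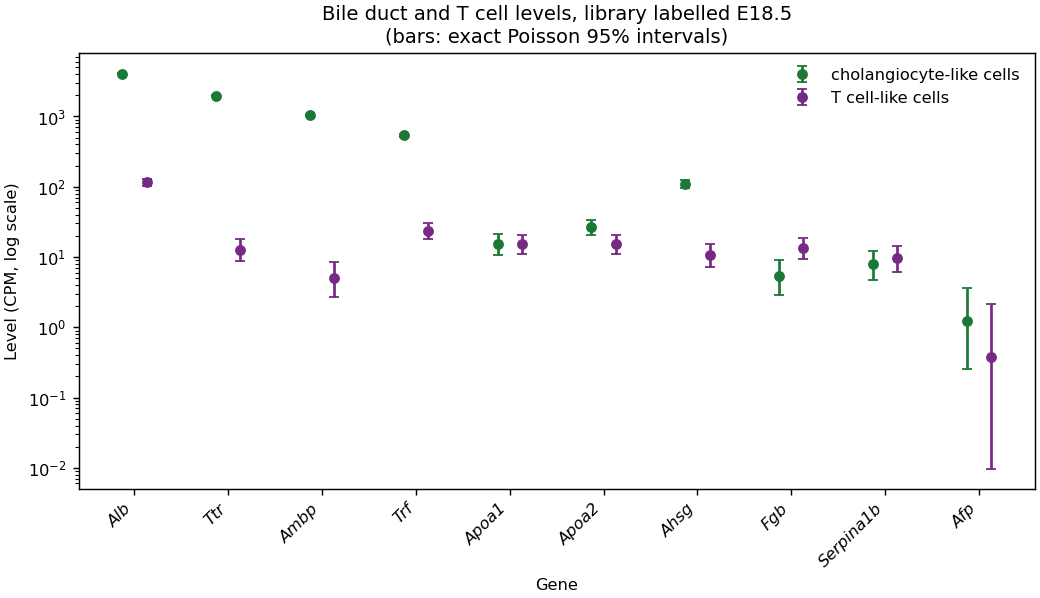
Level (CPM, log scale) of each of the 10 genes in cholangiocyte-like cells (green, left of each pair) and T cell-like cells (purple) of the library labelled E18.5, with exact Poisson 95% intervals. Alb, Ttr, Ambp, Trf and Ahsg lie at least 10-fold above the T cell-like level, and the intervals of Apoa1, Apoa2, Serpina1b and Afp overlap.

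Among the carriers, Alb was at 4070 CPM (3990 to 4151) in cholangiocyte-like cells and 116 CPM (103 to 129) in T cell-like cells, 35.2-fold higher (31.4 to 39.6). Ttr was at 1981 CPM in cholangiocyte-like and 12.7 CPM in T cell-like cells, 156-fold higher (111 to 228). Trf was at 539 CPM in cholangiocyte-like and 23.8 CPM in T cell-like cells, 22.7-fold higher (17.6 to 29.7). These 3 carriers thus stood at more than 20 times the T cell-like level. Other classes held more Trf than T cell-like cells. Its median was 59.6 CPM over the 12 classes other than cholangiocyte-like, and its highest among them was 231 CPM in macrophage-like cells. Afp, the fetal carrier, had 3 UMIs in cholangiocyte-like and 1 UMI in T cell-like cells, a ratio of 3.23 with an interval of 0.26 to 170.

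The inhibitors and binders split. Ambp was at 1041 CPM (1000 to 1082) in cholangiocyte-like cells and 4.99 CPM (2.66 to 8.53) in T cell-like cells, the highest ratio of the 10 genes at 209-fold (122 to 392). Ahsg was at 110 CPM in cholangiocyte-like and 10.7 CPM in T cell-like cells, 10.2-fold higher (6.92 to 15.7). Serpina1b had 19 UMIs in cholangiocyte-like cells (7.85 CPM) and 25 UMIs in T cell-like cells (9.60 CPM), a ratio of 0.82 (0.43 to 1.55). The feature table holds 6 near-identical Serpina1 genes, among which the authors' counting could split reads, so the level of Serpina1b is uncertain. Its paralog Serpina1c was at 267 CPM in cholangiocyte-like cells and 4.99 CPM in T cell-like cells.

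The lipoprotein and clotting members stayed near the low level. Apoa1 had 37 UMIs in cholangiocyte-like cells and 40 UMIs in T cell-like cells, at 15.3 CPM in cholangiocyte-like and 15.4 CPM in T cell-like cells, a ratio of 1.00 (0.62 to 1.60). Apoa2 was at 26.5 CPM in cholangiocyte-like and 15.4 CPM in T cell-like cells, 1.72-fold higher (1.14 to 2.63). Of its 64 UMIs, 20 came from 1 cell and 13 from another. These cells held 48 and 23 hepatocyte marker UMIs and 0 bile duct marker UMIs, so the ratio is not one of bile duct cells alone. Fgb was at 5.37 CPM in cholangiocyte-like cells and 13.4 CPM in T cell-like cells, 2.50-fold lower (1.29 to 5.15), with 13 and 35 UMIs. Per cell, the mean of Fgb was 0.078 UMIs in cholangiocyte-like and 0.074 UMIs in T cell-like cells. For every 1000 Alb UMIs, cholangiocyte-like cells held 487 Ttr, 256 Ambp and 133 Trf UMIs but 6.50 Apoa2, 3.76 Apoa1, 1.93 Serpina1b and 1.32 Fgb UMIs. In T cell-like cells these numbers were 110 Ttr, 43.2 Ambp and 206 Trf UMIs, and 133 Apoa2, 133 Apoa1, 83.1 Serpina1b and 116 Fgb UMIs. Each captured molecule gives 1 UMI at its 3′ end, so these ratios between genes are per molecule and were not divided by length.

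**Figure D4:**
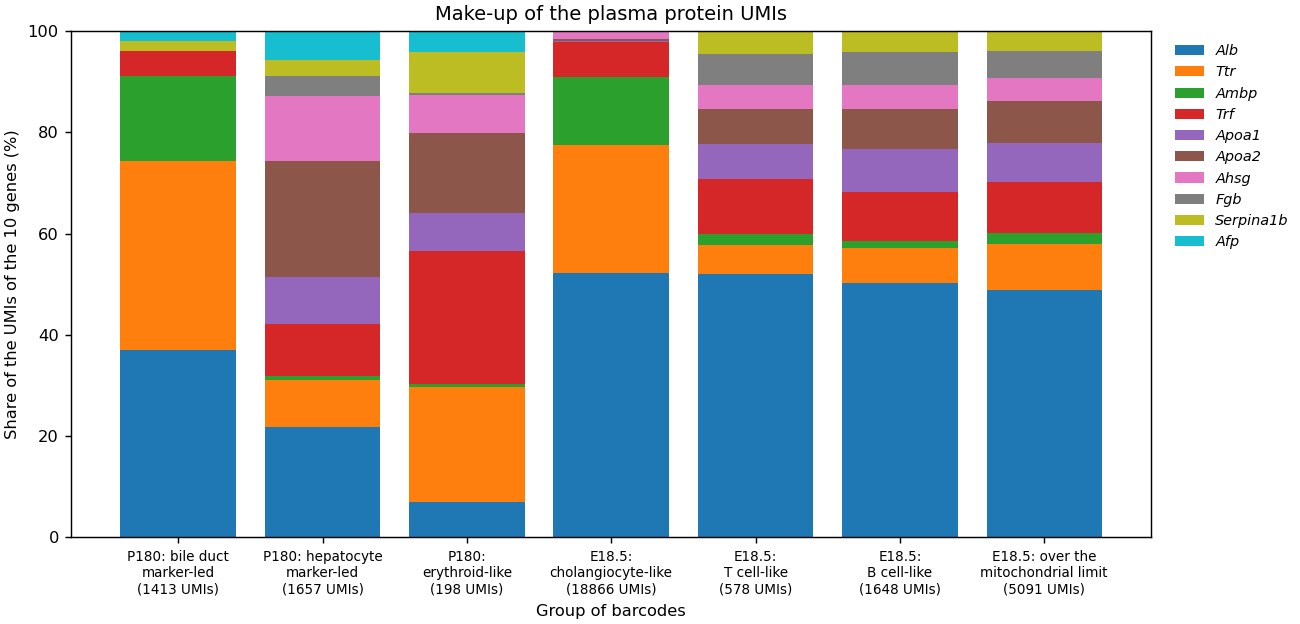
Share of each of the 10 genes (colours) in their summed UMIs (y axis, %), for groups of barcodes of the library labelled P180 (3 left bars) and that labelled E18.5 (4 right bars), with the summed UMIs below. T cell-like, B cell-like and high-mitochondrial barcodes share a mix with all genes but Afp visible, whereas cholangiocyte-like cells labelled E18.5 and bile duct marker-led barcodes labelled P180 hold mostly Alb, Ttr, Ambp and Trf.

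The cholangiocyte-like cells varied in how evenly they held each gene. Alb had a lowest of 0, a median of 45 and a highest of 381 UMIs, with 5 of 166 cells at 0. Ttr had a median of 19 and a highest of 174 UMIs (11 cells at 0), Ambp a median of 10 and a highest of 138 UMIs (14 cells at 0), and Trf a median of 4 and a highest of 63 UMIs (28 cells at 0). These 4 genes were thus found in most cells, and the 10 cells with the most held 25.9% of the Alb UMIs and 32.2% of the Trf UMIs. Ahsg was uneven: 105 of 166 cells had none, the highest had 18 UMIs, and 10 cells held 49.2% of its 266 UMIs. Apoa1, Fgb, Serpina1b and Afp were at 0 in 138, 156, 152 and 163 of the 166 cells.

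Trf was the member with a second pattern, in cells of the immune system and stroma. Relative to T cell-like cells labelled E18.5, it was at least 2-fold higher in 9 of the 12 classes compared. The 9 include cholangiocyte-like cells, described above, where 32.9% of all genes tested were higher by that margin. Of all genes tested, the share that was higher by that margin was 16.9% in macrophage-like, 16.4% in mesenchymal-like, 13.6% in unnamed cluster 13, 15.2% in monocyte-like, 14.4% in neutrophil-like, 4.35% in NK cell-like, 17.6% in dendritic-like and 9.39% in plasma cell-like cells. Outside cholangiocyte-like cells, the highest Trf level was in macrophage-like cells, at 231 CPM against 23.8 CPM in T cell-like cells, 9.69-fold (7.37 to 12.9). Macrophages recycle iron from red cells. A Trf UMI was found in 64.2% of 193 macrophage-like cells with a median depth of 7283 UMIs, against 12.3% of 472 T cell-like cells at 5278 UMIs. At 1000 UMIs a cell, 23.9% of macrophage-like and 2.55% of T cell-like cells had one. Mesenchymal-like cells had 139 CPM, 5.84-fold (4.01 to 8.50), monocyte-like cells 99.4 CPM, 4.18-fold (3.08 to 5.72), and unnamed cluster 13, led by genes of antigen presentation, 131 CPM, 5.50-fold (4.11 to 7.45). B cell-like cells had 24.4 CPM, a ratio of 1.03 (0.76 to 1.40), so the interval spans the T cell-like level.

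In the library labelled P180, Trf was also above the erythroid-like level in some classes, but so were most genes. In unnamed cluster 10 (322 cells), led by Cst3, Cd74 and Lyz2, Trf had 412 UMIs and 47.9 CPM, against 52 UMIs and 1.18 CPM in erythroid-like cells, 40.5-fold (30.3 to 55.1). In that comparison 72.7% of genes were at least 2-fold higher as well, so the 2-fold call alone does not set Trf apart. How the size of its ratio stands among those of all genes was not tested. Neutrophil-like cells had 8.22 CPM of Trf, 6.95-fold (5.07 to 9.67), where 58% of genes were at least 2-fold higher. Endothelial-like cells had 14.4 CPM of Trf from 9 UMIs, where 65.1% of genes were at least 2-fold higher. Among kept cells labelled P180 that are not rich in the 10 genes, Trf made up 63.4% of the member UMIs, against 24.5% in the library labelled E18.5. Serpina1b had its highest class labelled E18.5 in mesenchymal-like cells, with 17 UMIs and 40.8 CPM, against 25 UMIs and 9.60 CPM in T cell-like cells.

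Barcodes were called rich in the 10 genes where they held at least 20 member UMIs and at least 10 times the background share. This rule found 12 of 9771 barcodes (0.123%, exact interval 0.0635 to 0.214) in the library labelled P180 and 157 of 9871 (1.59%, 1.35 to 1.86) in that labelled E18.5. They held 71.0% of all member UMIs labelled P180 and 61.5% of those labelled E18.5. In the library labelled P180, 11 of the 12 fell in the mesenchymal-like cluster of 109 cells and 1 had been left out as a doublet. In the library labelled E18.5, 135 were cholangiocyte-like, 1 was endothelial-like and 21 had been left out, 12 of them as doublets. Because this rule uses the members, their level in such barcodes is a description. Splitting them by their marker UMIs, a step chosen after the data had been seen, gave 9 with more bile duct and 3 with more hepatocyte marker UMIs labelled P180, against 147 and 4 labelled E18.5. The other 6 labelled E18.5 had equal numbers of each and 73.0% to 80.7% of mitochondrial UMIs.

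**Figure D5:**
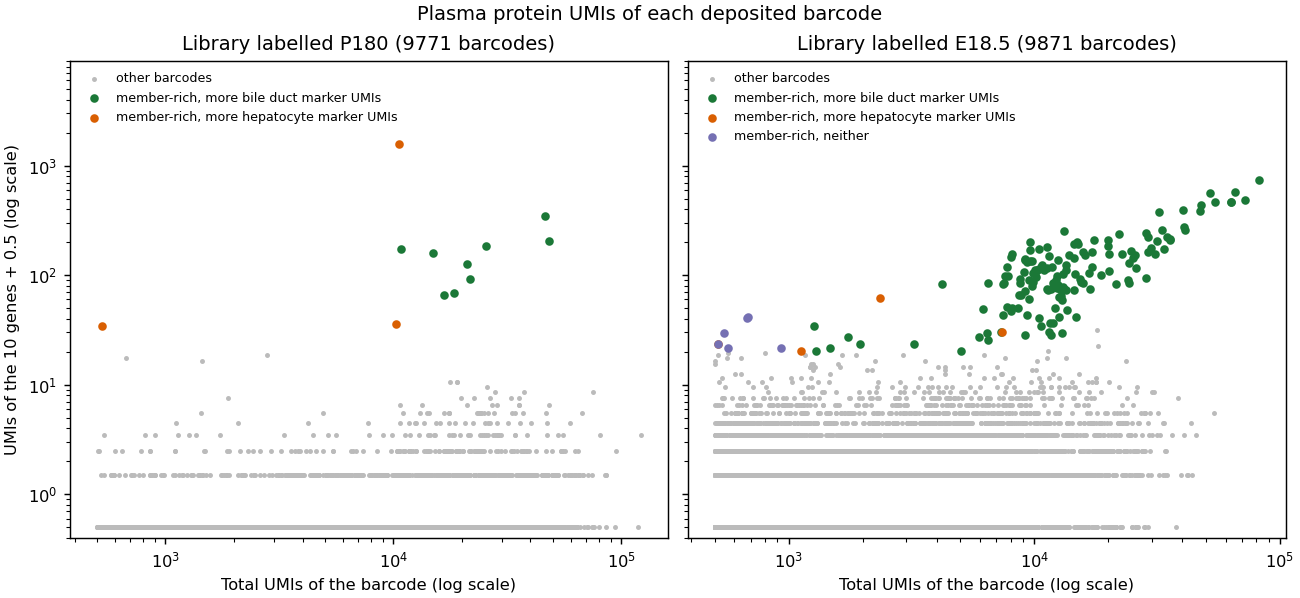
UMIs of the 10 genes (y axis, 0.5 added, log scale) against the total UMIs of each deposited barcode (x axis, log scale) in the library labelled P180 (left) and that labelled E18.5 (right). Coloured points are the 12 and 157 barcodes rich in the 10 genes, by the marker list with more UMIs; 1 hepatocyte marker-led barcode labelled P180 holds 1588 member UMIs, above all others.

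The 1 barcode labelled P180 with the most held 1588 member UMIs, 14.9% of its 10648 UMIs, with 10.2% of mitochondrial UMIs. It carried all 10 genes: 365 Apoa2, 357 Alb, 206 Ahsg, 168 Trf, 146 Apoa1, 123 Ttr, 93 Afp, 65 Fgb, 50 Serpina1b and 15 Ambp UMIs. It had 98 hepatocyte and 9 bile duct marker UMIs. The other hepatocyte marker-led barcodes labelled P180 held 35 and 34 member UMIs, each with Apoa1, Apoa2 and Ahsg, and 1 of them had been left out as a doublet. Of the 3 barcodes together, 9 genes were at least 2-fold above the erythroid-like level, where 27.3% of genes were, and Ambp stayed under the minimum. The barcodes were chosen for member UMIs against that same level, and of the 9 genes all but Trf reached the minimum through them alone. A single barcode held 1588 of the 1657 member UMIs, so nothing is read from this count. In sum the 3 barcodes held 1058 Apoa2 and 427 Apoa1 for every 1000 Alb UMIs. The hepatocyte marker-led barcodes labelled E18.5 were small, with 20 to 62 member UMIs, and 2 of the 4 were placed there by 1 hepatocyte marker UMI against 0. That with 62 fell in the cholangiocyte-like cluster, with 20 Apoa2, 18 Ttr and 8 Apoa1 UMIs, 48 hepatocyte and 0 bile duct marker UMIs, and it is the cell that holds 20 of the 64 Apoa2 UMIs of that class.

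The 9 bile duct marker-led barcodes labelled P180 held a different mix, with 65 to 343 member UMIs each. Alb had 524 UMIs in sum (22 to 165 a barcode), Ttr 528 (18 to 102), Ambp 236 (13 to 54) and Trf 69 (0 to 31). Apoa1, Apoa2, Ahsg and Fgb were at 0 in all 9. The floor of 3 UMIs over these barcodes is 13.4 CPM. The level of Fgb in cholangiocyte-like cells labelled E18.5, 5.37 CPM, is below this floor and that of Apoa1, 15.3 CPM, close to it. That of Ahsg (110 CPM) is above it. Apoa2, at 26.5 CPM, is above it as well, but 20 of its 64 UMIs came from 1 cell and 13 from another. Neither of these cells held a bile duct marker UMI, so that level of Apoa2 is not one of bile duct cells alone. Afp had 28 UMIs, in 7 of the 9 barcodes, and Serpina1b also had 28, in all 9. Over erythroid-like cells, 4 of the 10 genes (Alb, Ttr, Ambp and Trf) reached the minimum, and all 4 were at least 2-fold higher. Of all genes tested, 62.1% were higher by that margin. All but Trf reached the minimum through these barcodes alone, which were chosen for member UMIs, so nothing is read from this count. The other genes stayed under the minimum and were not called. Among them, Serpina1b and Afp had 28 UMIs each, against 16 and 8 UMIs in 6937 erythroid-like cells, and the rest had 0.

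Bile duct barcodes of the libraries were then set side by side. Of the genes, 6 reached the minimum, and 1 (Ahsg) was at least 2-fold lower in the 9 barcodes labelled P180 than in the 166 cholangiocyte-like cells labelled E18.5, where 17.2% of 7378 genes were lower and 4.73% higher. Ahsg and Apoa2 reached the minimum through the cells labelled E18.5 alone and could not come out higher, so nothing is read from this count. Alb was at 2339 CPM (2143 to 2548) labelled P180 and 4070 CPM (3990 to 4151) labelled E18.5, and Ttr at 2357 CPM labelled P180 and 1981 CPM labelled E18.5. Ambp was at 1054 CPM labelled P180 and 1041 CPM labelled E18.5, and Trf at 308 CPM labelled P180 and 539 CPM labelled E18.5. These 4 differed by under 2-fold. Ahsg had 0 UMIs labelled P180 and 266 UMIs (110 CPM) labelled E18.5, at least 8.21-fold lower. It was uneven labelled E18.5, where 105 of the 166 cells held none and 10 cells held 49.2% of its UMIs. Afp was at 125 CPM (83.1 to 181) labelled P180 and 1.24 CPM (0.26 to 3.62) labelled E18.5, a ratio of 101 (31.1 to 518) that rests on 28 and 3 UMIs. The 9 barcodes were chosen for their member UMIs and the 166 cells were not, so the levels are not equal samples of bile duct cells.

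Fetal transcripts stood beside Afp. H19 was at 223 CPM (50 UMIs) in the 9 bile duct marker-led barcodes labelled P180 and 0.41 CPM (1 UMI) in cholangiocyte-like cells labelled E18.5. Dlk1, a hepatoblast marker, had 33 UMIs in 2 of the 9 barcodes and 0 UMIs in the 166 cells. These genes were chosen with earlier results of the data known. In the hepatocyte marker-led barcodes labelled P180, H19 had 81 UMIs and Igf2 27 UMIs. For every 1000 Alb UMIs over all kept cells, there were 159 Afp UMIs (133 to 189) labelled P180 and 0.96 (0.50 to 1.68) labelled E18.5. Without the barcode with the most member UMIs, which holds 93 of the 148 Afp UMIs, the ratio was 96.0 labelled P180. Without all barcodes rich in the 10 genes, Afp was at 0.32 CPM (26 UMIs) labelled P180 and 0.34 CPM (9 UMIs) labelled E18.5, a ratio of 0.94 with an interval of 0.43 to 2.28.

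Outside the rich barcodes the low level differed between the libraries, gene by gene. It summed to 13.1 CPM labelled P180 and 246 CPM labelled E18.5, 18.8-fold lower (17.6 to 20.1). The 9 genes that reached the minimum were at least 2-fold lower, where 48.4% of 14262 genes were. Of these, Alb, Ambp, Apoa1, Fgb and Serpina1b reached it through the library labelled E18.5 alone, so the count is a description. Alb was at 0.56 CPM (46 UMIs) labelled P180 and 102 CPM (2727 UMIs) labelled E18.5, 182-fold lower (136 to 250). Fgb was 120-fold lower (60.2 to 281), Apoa1 33.6-fold (24.0 to 48.4), Apoa2 15.2-fold (12.04 to 19.4) and Trf 7.26-fold (6.63 to 7.95). The gap in Alb was thus wider than that in Trf in these sums, by intervals that cover counting error only. Of the 678 Trf UMIs labelled P180, 426 came from the unnamed clusters and 173 from neutrophil-like cells. The Trf sum is therefore not an even low level, and the gaps in Alb and Trf do not compare the same thing. The median depth, the mitochondrial share and the make-up of cell types given above differ between these libraries as well, and their part in the gap was not tested.

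Within matched classes the direction of the summed level held. In B cell-like cells the sum was 10.5 CPM (25 UMIs) labelled P180 and 253 CPM (1648 UMIs) labelled E18.5, 24.1-fold lower (16.3 to 37.3). The 8 genes that reached the minimum were lower, where 18.2% of 8650 genes were, but all 8 reached it through the library labelled E18.5 alone, so nothing is read from this count. Alb had 0 UMIs in 201 B cell-like cells labelled P180, against 827 UMIs in 1309 labelled E18.5, at least 101-fold lower. In endothelial-like cells the sum was 103 CPM (64 UMIs) labelled P180 and 295 CPM (1168 UMIs) labelled E18.5, 2.88-fold lower (2.24 to 3.77). There 5 of 7 genes were lower, where 10.1% of 8240 genes were, and these 7 too reached the minimum through the library labelled E18.5 alone. Ttr was at 19.2 CPM labelled P180 and 22.0 CPM labelled E18.5. Ahsg was not lower, at 17.6 CPM (11 UMIs) labelled P180. It had 56 UMIs labelled E18.5, where no class but cholangiocyte-like exceeded 16.2 CPM. Under the minimum, Serpina1b (7 against 34 UMIs) and Afp (2 against 0 UMIs) were also higher in CPM labelled P180, and Ambp had 0 against 15 UMIs. A single barcode held 18 of the 64 UMIs, and without it the sum was 3.99-fold lower. Neutrophil-like cells had 12.02 CPM labelled P180 and 360 CPM labelled E18.5, and erythroid-like cells 4.50 CPM labelled P180 and 195 CPM labelled E18.5. B cell genes were among the leading genes of the E18.5 erythroid-like cluster. Mesenchymal-like cells were the exception at first, with 3081 CPM labelled P180 and 355 CPM labelled E18.5, 8.68-fold higher. Without the 11 rich barcodes they were 7.12-fold lower labelled P180. That cluster labelled P180 had Spp1 and Clu, which are bile duct genes, among its leading genes.

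The wider pathway was read from lists of secreted proteins, enzymes and regulators. In cholangiocyte-like over T cell-like cells labelled E18.5, nearly all listed genes that passed did so through cholangiocyte-like cells alone, so the counts are a description, to be read beside the 32.9% of all genes that were higher and the 17.3% that were lower. Of 14 transport and binding proteins, 4 reached 50 UMIs and all 4 were higher, led by Cp (ceruloplasmin, a copper carrier) at 2583 CPM in cholangiocyte-like against 1.92 CPM in T cell-like cells, with Rbp4 (retinol-binding protein) at 262 CPM against 2.69 CPM. Of 11 other apolipoproteins, 5 were higher and 6 stayed under the minimum, with Apoe at 11052 CPM against 67.9 CPM and Apoc1 at 1270 CPM against 9.60 CPM. Apob, the protein of very-low-density lipoprotein, was at 52.1 CPM in cholangiocyte-like and 4.99 CPM in T cell-like cells. Apoa1 and Apoa2 thus stood apart from Apoe and Apoc1, which were over 100-fold higher.

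The other fibrinogen chains differed from Fgb. Fga was at 58.3 CPM in cholangiocyte-like and 8.06 CPM in T cell-like cells, 7.23-fold higher, and Fgg at 46.7 CPM in cholangiocyte-like and 9.98 CPM in T cell-like cells, 4.68-fold higher. Of 19 coagulation genes, 5 were higher and 14 stayed under the minimum, where 32.9% of all genes tested were higher, among them Proc (the anticoagulant protein C) with 364 UMIs against 0 UMIs. Of 15 complement genes, 5 were higher and 10 under the minimum, with C3 at 623 CPM against 10.4 CPM. Of 17 protease inhibitors and acute phase genes, 4 were higher and 13 under the minimum, among them Crp at 281 CPM against 0.77 CPM. Among the hepatocyte enzymes, Ass1, of the urea cycle, was at least 2-fold lower, at 7.85 CPM in cholangiocyte-like against 39.5 CPM in T cell-like cells.

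Regulators of these genes were mostly present. Of 14 transcription factors, 12 reached the minimum, 11 were higher and 1 (Zhx2) was lower in cholangiocyte-like than T cell-like cells, where 32.9% of all genes were higher and 17.3% lower. Onecut1 was at 229 CPM against 0.38 CPM and Hnf4a, a central hepatocyte regulator, at 37.6 CPM against 0.77 CPM. Zhx2 and Zbtb20, both known in mouse as repressors of Afp after birth, were at 36.4 CPM and 1506 CPM in cholangiocyte-like cells, and at 117 CPM and 540 CPM in T cell-like cells. In the 9 bile duct marker-led barcodes labelled P180, which held Afp, Zhx2 was at 26.8 CPM and Zbtb20 at 1362 CPM.

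Genes with the most similar pattern were ranked by their Pearson correlation with the summed level of the 10 genes (log2) over 12 named classes labelled E18.5, among 13513 genes. These points share libraries and background, so the values are a description. The 8 closest were Gc (0.98), Apoc1 (0.97), Pak3 (0.96), Proc (0.96), Pigr (0.95), Slc38a4 (0.95), Fga (0.95) and Gsta3 (0.95), and all had their highest level in cholangiocyte-like cells. Among the 10 genes themselves, Alb (0.97), Ahsg (0.97), Ttr (0.97) and Ambp (0.94) lay closest to the summed level, of which they are part, followed by Trf (0.75), Apoa2 (0.57), Afp (0.42), Apoa1 (0.29), Serpina1b (0.24) and Fgb (-0.21). The library labelled P180 had 5 classes for this, all with their peak in the mesenchymal-like cluster of the rich barcodes, and is not ranked here.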

How the data were processed

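Single-cell RNA (10x Genomics 3′ chemistry) was measured in 1 library labelled P180 and 1 labelled E18.5. The deposited values are raw counts of UMIs per gene and barcode. Per the file headers, Cell Ranger 7.1.0 made these tables for the authors. The submitters' processing notes also name fastp, Trimmomatic, Seurat, edgeR and mm10 without their role. Barcodes with at least 200 genes, 500 UMIs and under 25% of mitochondrial UMIs were kept, and those with the highest Scrublet scores (0.8% per 1000 barcodes, 735 labelled P180 and 178 labelled E18.5) were left out as doublets. Cells were clustered with scanpy 1.11.5 (2000 genes, 30 components, 15 neighbours, Leiden resolution 1) without 86 plasma protein genes and named from 17 marker sets. CPM were taken from class sums, with exact Poisson intervals at 95%, exact binomial intervals for shares, and exact conditional intervals for ratios. A call needed 50 UMIs on a side and a 2-fold ratio. Against a count of 0, ratios use a floor of 3 UMIs. With 1 library a stage, no p-value was computed. The genes described are the 10 members, the wider lists and the 8 genes closest in pattern. The members and lists were chosen with earlier results of these data known. Alternatives are given in the closing section, and scripts were tested on simulated data. Some results for listed genes are not reported here.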

Additional observations from a re-analysis of the deposited data

How the results depend on the processing

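No paired analysis was possible because each stage has 1 library. On the log2 scale, the summed level over all kept cells, labelled P180 over labelled E18.5, was -4.12. It was -4.99 with a mitochondrial limit of 10%, -4.04 with no minimum of genes, -4.21 with no doublets left out, -3.60 over UMIs without haemoglobin and mitochondrial genes and -4.23 without the rich barcodes. Without the barcode labelled P180 with the most member UMIs, an alternative chosen after seeing the data, it was -4.83. The cholangiocyte-like over T cell-like ratio was 5.14. It was 3.56 without the rich barcodes, which leaves 31 cells, and 5.07 to 5.24 under the other 6 alternatives. Counts of rich barcodes ran from 10 to 18 labelled P180 and 122 to 206 labelled E18.5. Afp UMIs per 1000 Alb UMIs labelled P180 were 159 at first, 98.9 with the limit of 10%, 565 without the rich barcodes and 96.0 without the top barcode. Labelled E18.5 they were 0.96, and 3.30 without the rich barcodes. Afp over all kept cells had a log2 ratio of 2.12, which turned to -0.092 without the rich barcodes and was 0.69 without the top barcode. The mesenchymal-like ratio of 3.12 turned to -2.83 without the rich barcodes (chosen after seeing the data). For these last 2 the barcodes left out hold the difference, and for the other shifts the cause was not tested. Of 40 alternative values of single members, 30 moved by more than their counting interval, 9 did not and 1 turned. The limits are these: 1 library a stage, labels that the cell content runs against, cluster names rebuilt here, few barcodes labelled P180 with plasma protein transcripts, and no feature for tdTomato, so host and injected cells were not told apart.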
